A study of Mus musculus with 2 samples.

Results

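The endoplasmic reticulum (ER) stress response genes described here are 34 genes out of 31053 listed in the count matrices, taken by symbol, and all 34 were found. The list was selected on measured values in part: *Hyou1* had been lower in monocytes and macrophages of the control library, and the other members were added to see whether the chaperones and the melanoma cells did the same. Single-cell RNA sequencing (10x Genomics, 3' v3 chemistry) had been done on sorted CD45+ leukocytes from *Braf*-mutant, COX-deficient (*Ptgs*-/-) mouse melanomas at day 4 after injection into C57BL/6 hosts that were 8 weeks old. Control hosts were untreated, whereas NK cell-depleted hosts received 200 µg of anti-NK1.1 (clone PK136) and 30 µg of anti-ASIALO GM1 at day 0 and day 2, 2 antibodies that remove natural killer (NK) cells. Several tumors went into each sorted sample. Cells of the parental, COX-competent melanoma line had been added to both sorted samples, which the paper did to gauge variability between samples. Each group is 1 library. The genotype label of both samples reads wild-type tumor cells while their titles name a knockout, a conflict that touches both groups alike. With 1 library per group there is no replicate check and no test: every difference below is between this pair of libraries, and every interval is a 95% interval for counting error only.

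Secreted and membrane proteins fold in the ER with the help of lumenal chaperones and of enzymes that form disulfide bonds. When unfolded proteins build up, the sensors IRE1α (*Ern1*), ATF6 and PERK start the unfolded protein response, which raises chaperones, speeds up the removal of misfolded proteins (ER-associated degradation, ERAD) and slows translation. In macrophages and dendritic cells the IRE1α and XBP1 branch is also known to act in cytokine production and antigen presentation, and many tumor cells carry a raised response.

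The control library held 5292 cells and 24810009 unique molecular identifiers (UMIs, distinct transcript molecules) after the authors' filter, and the NK cell-depleted library held 4506 cells and 23245982 UMIs. Of the called barcodes, 7 occurred in both libraries, and 5 of those passed the filter in both. Cells were clustered without the members and named anew from marker genes, so the classes may not match those of the study. Monocyte/macrophage-like cells were the main class, with 3336 control and 2975 NK cell-depleted cells, and held 18072037 and 17048702 UMIs. Each of the 33 listed monocyte and macrophage markers had UMIs in this class in both libraries. The class was named from these same markers, so this is no check of its name. Median depth in this class was 4954 and 5375 UMIs per cell, and the median share of mitochondrial UMIs was 2.70% and 3.65%. Their part in the ratios was not tested. The 12 NK cell markers summed to 38.3 counts per 1000000 UMIs (CPM) of this class in control cells and to 20.9 CPM after NK cell depletion, where 7 of the 12 were at 0. *Hmga2*, by which a cluster of *Ptprc*-poor cells is called below, stood at 3.32 and 3.40 CPM in this class.

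The promoters of several members carry the ER stress response element (ERSE), the sequence through which ATF6 and XBP1 are known to raise chaperone genes. Promoter sequences (RefSeq, GRCm38.p6, 250 bases before to 50 after the start) were at hand for 30 members. *Hyou1*, *Manf*, *Derl1* and *Atf6* had none at hand and were not searched. ERSE, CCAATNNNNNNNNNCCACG on either strand, was in 7 of these 30 and in 39 of all 32851 promoters (0.119%). The shorter ERSE-II, ATTGGNCCACG, was in 2 members, *Herpud1* and *Dnajb11*, and in 12 promoters overall (0.0365%). Either element was in 6 of 11 chaperone and foldase promoters, in 3 of 8 ERAD promoters and in 0 of the 11 promoters of the other roles, against 51 of all promoters (0.155%). The following stretches lie upstream of the start, 5′ to 3′ on the strand of the gene, with the element in capitals, and are shown because *Hspa5*, *Pdia6* and *Herpud1* are among the members that were lower in the control library whereas *Hsp90b1*, *Dnajc3* and *Creld2* were not past the threshold.
Hspa5, chr2:34772015-34772053, plus strand: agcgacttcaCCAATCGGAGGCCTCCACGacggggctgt
Pdia6, chr12:17266481-17266519, plus strand: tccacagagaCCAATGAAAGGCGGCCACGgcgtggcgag
Herpud1 (ERSE-II), chr8:94386367-94386397, plus strand: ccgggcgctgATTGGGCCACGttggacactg
Hsp90b1, chr10:86705523-86705666, minus strand: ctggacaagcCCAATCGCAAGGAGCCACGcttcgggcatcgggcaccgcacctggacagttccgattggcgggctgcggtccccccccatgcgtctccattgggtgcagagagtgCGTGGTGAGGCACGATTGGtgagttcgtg
Dnajc3, chr14:118937817-118937855, plus strand: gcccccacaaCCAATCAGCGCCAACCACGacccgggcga
Creld2, chr15:88819510-88819548, plus strand: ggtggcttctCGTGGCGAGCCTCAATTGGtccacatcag
In *Creld2* and in the second element of *Hsp90b1* the ERSE reads on the opposite strand. The UPRE core TGACGTG, known as an XBP1 and ATF6 site, was in 1 member promoter, that of *Hspa5*, and in 661 of all promoters (2.01%). The ATF4 element TGATGNAAT was in 0 member promoters within this window and in 317 of all promoters (0.965%). These matches describe letters in a window, and the elements overlap neither each other nor the UPRE core of *Hspa5*. Among the members searched, *Syvn1* and *Derl3* were the others with an ERSE.

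In monocyte/macrophage-like cells, 3 of 13 lumenal chaperones and foldases were lower in the control library by the rule used here. None was higher, and the other 10 were not past it. Of all genes tested, 11.4% were lower and 11.5% were higher. The intervals of *P4hb*, *Pdia4* and *Creld2* include 1, and those of the other chaperones and foldases lie below 1. The threshold is a log2 ratio of at least 0.32 in either direction with the interval of the ratio on 1 side of 1, asked of genes with 20 UMIs or more in the class, both libraries added. *Hyou1* (ENSMUSG00000032115), a large HSP70-type chaperone of the ER lumen, had 671 UMIs in the control library, or 37.1 CPM (34.4 to 40.0), and 1218 UMIs, or 71.4 CPM (67.5 to 75.6), in the NK cell-depleted library. Its ratio of control over NK cell-depleted was 0.520 (0.472 to 0.572), and 45 of 9772 genes with at least 100 UMIs had a lower ratio (0.460%). As the gene on which the list was selected, *Hyou1* is given as a description.

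*Hspa5* (ENSMUSG00000026864), which encodes BiP, the main HSP70 chaperone of the ER and the partner that *Hyou1* serves as a nucleotide exchange factor, stood at 597 CPM (586 to 609) in the control library and at 890 CPM (876 to 905) after NK cell depletion. The ratio was 0.671 (0.655 to 0.688). *Pdia6*, a protein disulfide isomerase, had 290 and 394 CPM, with a ratio of 0.735 (0.709 to 0.762). These 3 genes therefore had their lower level in the control library by between 1.36-fold and 1.92-fold. *Hsp90b1*, which encodes the ER HSP90 protein GRP94 and had the highest count of all members, differed less, with 802 and 944 CPM and a ratio of 0.849 (0.830 to 0.868). The ratios of the J-domain co-chaperones of BiP were 0.821 (0.754 to 0.895) for *Dnajb9*, 0.874 (0.807 to 0.946) for *Dnajb11* and 0.932 (0.876 to 0.992) for *Dnajc3*. All 3 intervals lay below 1 and none of the ratios reached the threshold.

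*Manf* and *Sdf2l1*, factors of the lumen that work with BiP, had ratios of 0.818 (0.769 to 0.869) and 0.844 (0.758 to 0.939). *Calu*, a calcium-binding protein of the secretory pathway, had 0.905 (0.833 to 0.982). The disulfide isomerases did not go together. *P4hb*, the most studied of them, was at 354 and 360 CPM, a ratio of 0.982 (0.948 to 1.02), and *Pdia4* was at 88.4 and 83.4 CPM, a ratio of 1.06 (0.986 to 1.14). *Creld2*, with an ERSE in its promoter as above, had 26.8 and 23.9 CPM and a ratio of 1.12 (0.979 to 1.28). The intervals of these 3 include 1.

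**Figure D1:**
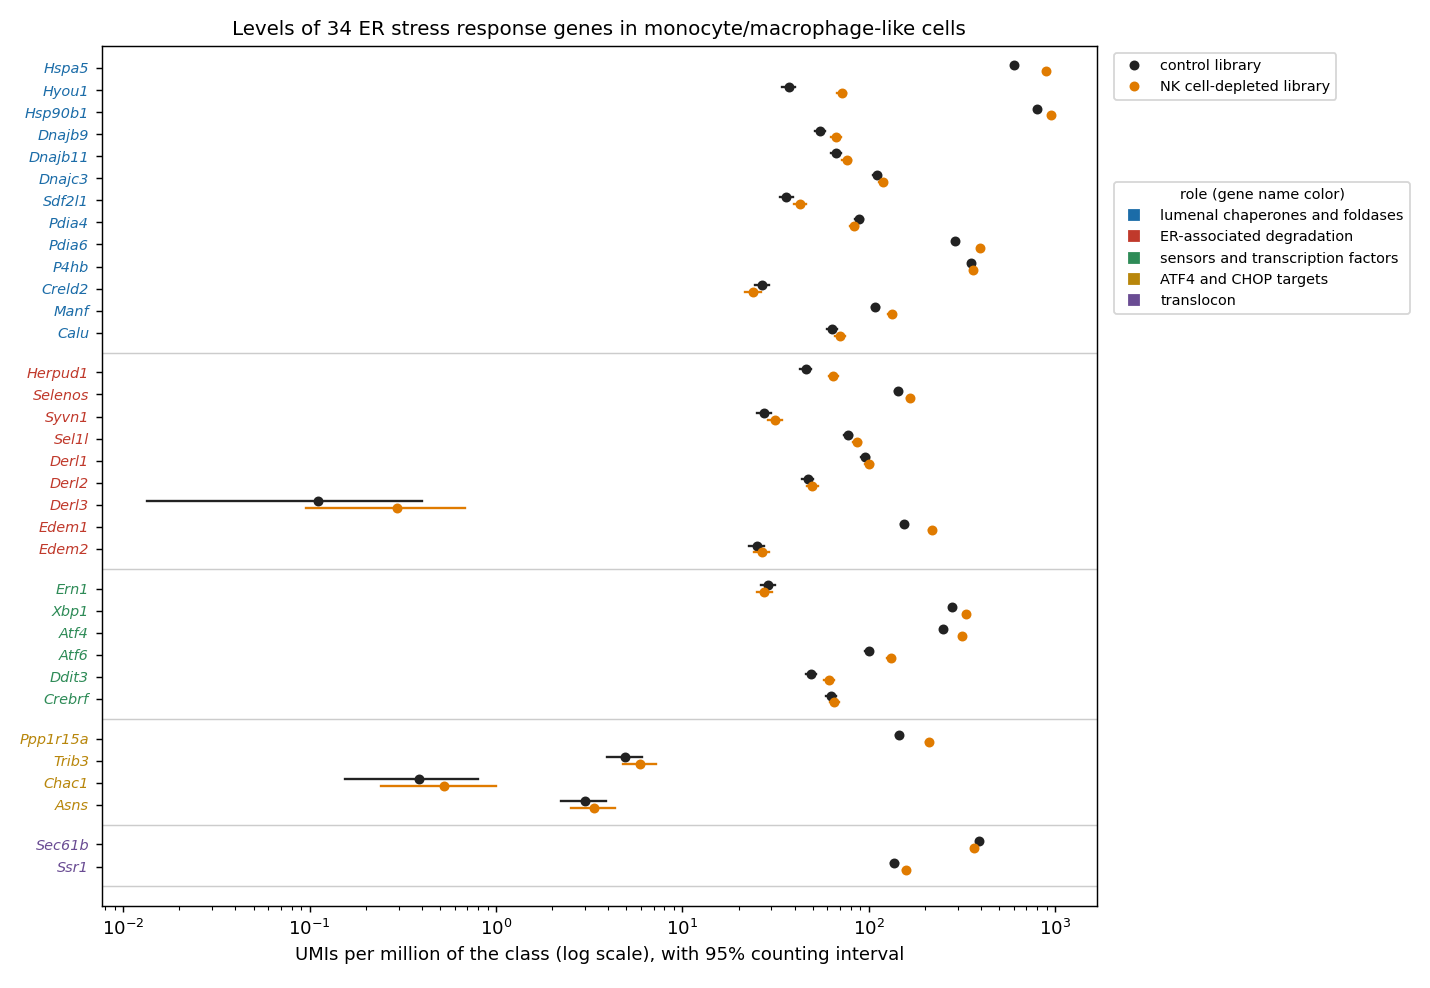
Levels of the 34 members in monocyte/macrophage-like cells of both libraries, as UMIs per 1000000 UMIs of the class on a log axis, with lines for the 95% counting interval and gene names colored by role. *Hyou1* sits at 37.1 in control cells and 71.4 in NK cell-depleted cells, while *P4hb* overlaps at 354 and 360, and *Derl3* and *Chac1* are near 0.

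Among the ERAD members, 2 of 8 with at least 20 UMIs were lower in the control library and 0 were higher, against 11.4% and 11.5% of all genes. *Edem1*, a lectin-like protein that hands misfolded glycoproteins to degradation, had 154 CPM in control cells against 217 CPM after NK cell depletion, with a ratio of 0.710 (0.676 to 0.746). *Herpud1*, a membrane scaffold of the degradation complex, was at 46.0 and 64.6 CPM, with a ratio of 0.712 (0.650 to 0.780). *Edem2*, the relative of *Edem1*, had a ratio of 0.937 (0.821 to 1.07). The ubiquitin ligase *Syvn1* and its partner *Sel1l* had ratios of 0.866 (0.765 to 0.981) and 0.897 (0.833 to 0.965). *Selenos*, a selenoprotein of the same complex, had 0.865 (0.820 to 0.913). For the channel proteins *Derl1* and *Derl2*, the ratios of 0.949 and 0.948 had intervals that include 1. *Derl3*, known from secretory cells, had 2 and 5 UMIs in the class and is given no ratio.

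Of the 6 sensors and transcription factors, 2 were lower in the control library and 0 were higher, against 11.4% and 11.5% of all genes. *Atf6*, whose product is the sensor cleaved in the Golgi to a transcription factor, was at 99.9 and 131 CPM, with a ratio of 0.762 (0.716 to 0.811). *Atf4*, the transcription factor of the PERK and amino acid branches, was at 251 and 315 CPM, with a ratio of 0.796 (0.765 to 0.829), just inside the threshold. *Ddit3*, which encodes CHOP, the ATF4-dependent factor linked to cell death, was just outside it, with 49.0 and 60.9 CPM and a ratio of 0.804 (0.735 to 0.881). *Xbp1*, the target of IRE1α splicing, was at 280 and 333 CPM, a ratio of 0.842 (0.810 to 0.875). These 3' counts do not tell spliced from unspliced *Xbp1*. *Ern1*, which encodes IRE1α itself, had a ratio of 1.04 (0.920 to 1.19), and *Crebrf*, a regulator of CREB3, one of 0.958 (0.881 to 1.04).

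Of the 4 ATF4 and CHOP targets, 3 had at least 20 UMIs in this class. Among these 3, 1 was lower in the control library, against 11.4% of all genes. *Trib3*, *Asns* and *Chac1* had few UMIs in this class. *Ppp1r15a*, which encodes GADD34, the phosphatase subunit that restores translation, was at 146 CPM in control cells and 210 CPM after depletion, a ratio of 0.695 (0.661 to 0.731). *Trib3*, an inhibitor of AKT and of ATF4, was at 4.92 and 5.92 CPM, and *Asns*, asparagine synthetase, at 2.99 and 3.34 CPM. Their ratios, 0.831 (0.618 to 1.12) and 0.894 (0.604 to 1.32), could not be told from 1 at this depth. *Chac1*, a glutathione-degrading enzyme, had 7 and 9 UMIs and is given no ratio. Of the translocon members, *Ssr1* had a ratio of 0.866 (0.820 to 0.915), and *Sec61b*, a subunit of the protein channel, went the other way at 1.07 (1.03 to 1.10). Neither reached the threshold.

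Over all roles, 8 of the 32 members with at least 20 UMIs were lower in the control library, namely *Hyou1*, *Hspa5*, *Pdia6*, *Edem1*, *Herpud1*, *Atf6*, *Atf4* and *Ppp1r15a*. Among all 11734 genes with this count, 11.4% were lower by the same rule. In the other direction 0 of 32 members were higher, against 11.5% of all genes. The list was selected on this same contrast, so these counts are a description and nothing is read from them. The median log2 ratio was -0.24 over the chaperones and foldases, -0.18 over the ERAD members, -0.28 over the sensors and transcription factors, -0.27 over the ATF4 and CHOP targets and -0.06 over the translocon pair, with -0.01 over all genes. At a threshold of 1.5-fold, only *Hyou1* of the 32 members passed, since *Hspa5* differed by 1.49-fold. With every cluster of the class given the same weight in both libraries, *Herpud1* (log2 ratio -0.24), *Atf4* (-0.25), *Atf6* (-0.09) and *Ppp1r15a* (-0.27) were no longer past the threshold and *Trib3* was (-0.74), while *Hyou1* (-0.74), *Hspa5* (-0.38), *Pdia6* (-0.34) and *Edem1* (-0.51) still were.

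**Figure D2:**
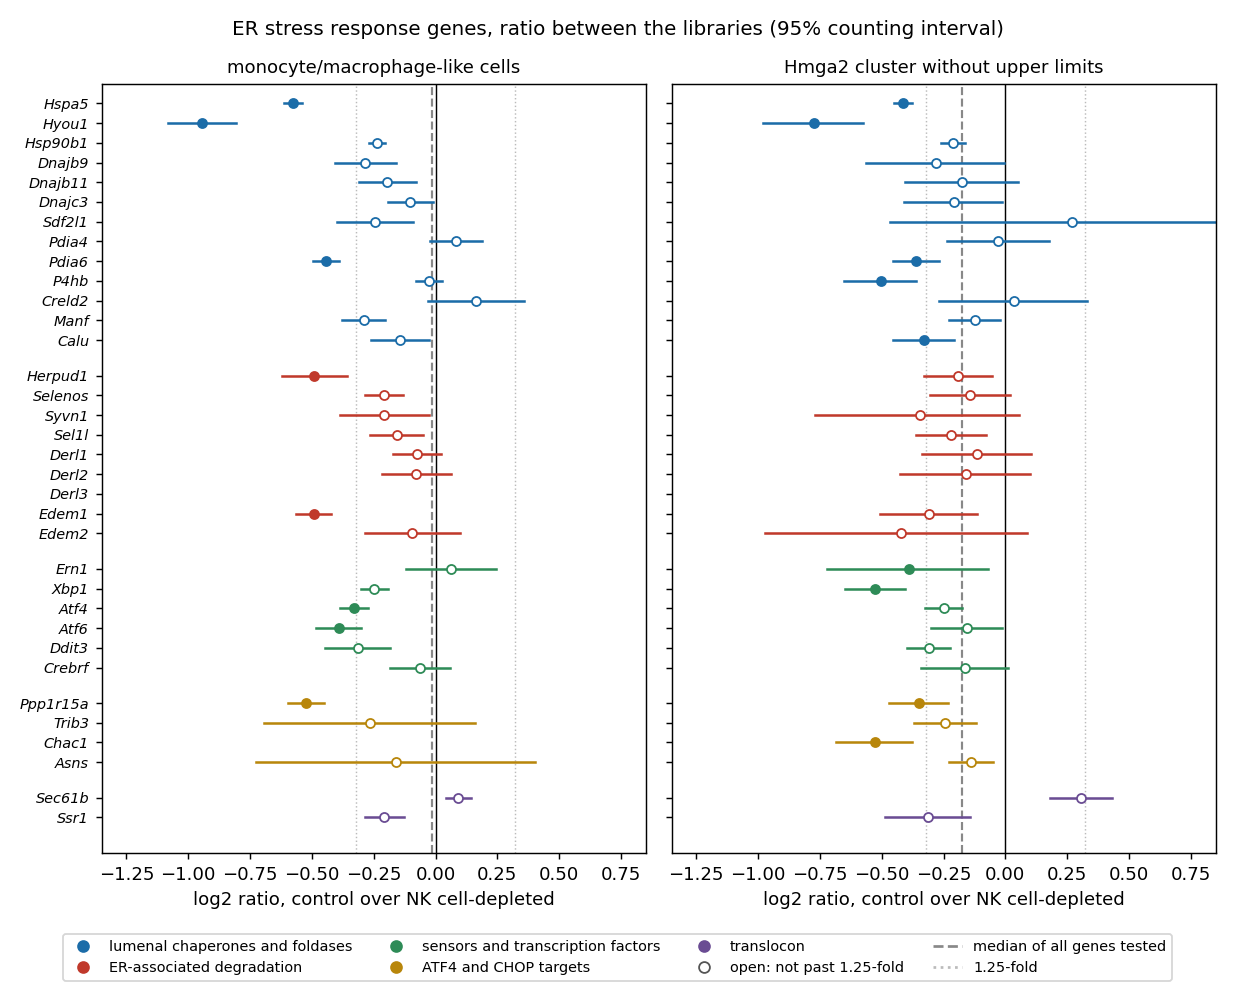
Log2 ratio of control over NK cell-depleted for each member, with lines for the 95% counting interval, in monocyte/macrophage-like cells (left) and in the *Hmga2* cluster found without upper limits on depth (right). Filled points are past the threshold, the dashed line is the median of all genes tested, at -0.01 on the left and at -0.18 on the right, and *Hyou1* is at -0.94 and -0.77.

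Genes of the same pathway outside the list had a median log2 ratio of -0.05 in monocyte/macrophage-like cells, against -0.01 over all genes. From 137 such genes, 134 had at least 20 UMIs in this class. Of these, 21 were lower and 5 higher in the control library, against 11.4% and 11.5% of all genes. Other folding factors gave 3 lower and 2 higher of 25, other ERAD genes 3 and 0 of 21, other sensors and transcription factors 5 and 0 of 17, other ATF4 targets 3 and 0 of 22, translocation and glycosylation genes 4 and 1 of 30, and ER to Golgi transport genes 3 and 2 of 19. The extremes named next are among genes with at least 100 UMIs. The lowest ratios were those of *Slc7a5*, an amino acid transporter (9.07 and 16.9 CPM, log2 ratio -0.89), *Ube2j1*, the ubiquitin-conjugating enzyme of ERAD (48.3 and 77.6 CPM, -0.68), and *Nploc4*, a cofactor of the VCP extraction motor (27.2 and 42.8 CPM, -0.65). The highest were those of *Golgb1*, a Golgi tether (66.0 and 43.6 CPM, 0.60), *Krtcap2*, a subunit of the oligosaccharyltransferase (97.3 and 67.3 CPM, 0.53), and *Cnpy2*, an ER protein (46.0 and 31.8 CPM, 0.53). Transcript length moved slightly with the ratios. Among protein-coding genes with at least 100 UMIs, split into 4 groups of near-equal size by length, the median log2 ratio was 0.04 for the shortest group, up to 1984 bases, and -0.06 for each of the other 3. *Sec61b*, with 564 bases, and *Creld2*, with 1366, are in the shortest group, as are *Herpud1*, *Atf4*, *Ddit3*, *Sdf2l1* and *Selenos*, while *Hyou1* has 4489 bases. The part of length in the ratios was not tested.

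Next, the members were followed through the 10 monocyte/macrophage-like clusters that held at least 100 cells of each library. The eleventh, number 14, had 94 NK cell-depleted cells and was left out. *Hyou1* was below a log2 ratio of 0 in 10 of 10 clusters and past the threshold in 7. Its level ran from 25.3 to 65.8 CPM in control cells over these clusters, with a median of 39.0, and from 48.5 to 110 CPM in NK cell-depleted cells, with a median of 67.2. The widest gaps were in cluster 4, led by *Il10*, *Lyve1* and *Cbr2*, with 25.3 and 70.9 CPM (log2 ratio -1.47), in cluster 9, led by *Ccl8*, *Gas6* and *Cbr2*, with 37.8 and 95.3 CPM (-1.33), and in cluster 6, led by *Htra3*, *Spint1* and *Tmem119*, with 40.2 and 85.1 CPM (-1.09). The narrowest was in cluster 12, the *Ace* monocyte cluster, with 44.4 and 48.5 CPM (-0.11), where the interval of the ratio ran from 0.556 to 1.46.

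*Edem1* was below 0 in 10 of 10 clusters, past the threshold in 9 and between -0.66 and -0.31. *Hspa5* was below 0 in 10 of 10 clusters and past the threshold in 5. Its log2 ratio was -0.74 in cluster 1 (*Gpnmb*, *Mmp13*, *Spp1*), where 571 CPM in the control stood against 955 CPM, and -0.17 in cluster 12. So *Hspa5* did not follow *Hyou1* cluster by cluster: in cluster 4, where *Hyou1* differed most, *Hspa5* was at 907 and 1069 CPM (-0.24). *Pdia6* was past the threshold in 7 of 10 clusters but was at 238 and 228 CPM (0.06) in cluster 1, where *Hspa5* differed most. *Hsp90b1* and *Ssr1* were below 0 in 10 of 10 clusters, with 0 and 1 past the threshold. *Sec61b* was above 0 in 9 of 10 and past the threshold, higher in the control library, in 4. *Creld2* was above 0 in 8 of 10, with 1 past the threshold, and *Dnajb11* had 2 clusters in which it was higher, 1 of them cluster 15 at 1.07.

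The number of members lower in the control library was 10 of 32 in cluster 1, where 8.95% of all genes tested were lower. It was 5 of 30 in cluster 3 (*Gm9733*, *Ly6c2*, *Vcan*; 10.0% of all genes), 5 of 30 in cluster 4 (8.51%) and 9 of 31 in cluster 5 (*Pf4*, *Pdpn*, *Arg1*; 9.98%). Cluster 6 had 8 of 30 (8.87%), cluster 9 had 4 of 30 (7.63%), and cluster 11, led by *Slc7a2* and *Dcstamp*, had 7 of 31 (9.72%). The remaining clusters were 12, with 3 of 30 (6.30%), 15 (*Chil3*, *Cd177*, *Hp*), with 5 of 30 (6.83%), and 16 (*Thbs1*, *Havcr2*), with 5 of 30 (6.92%). The clusters share their libraries and are not replicates.

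**Figure D3:**
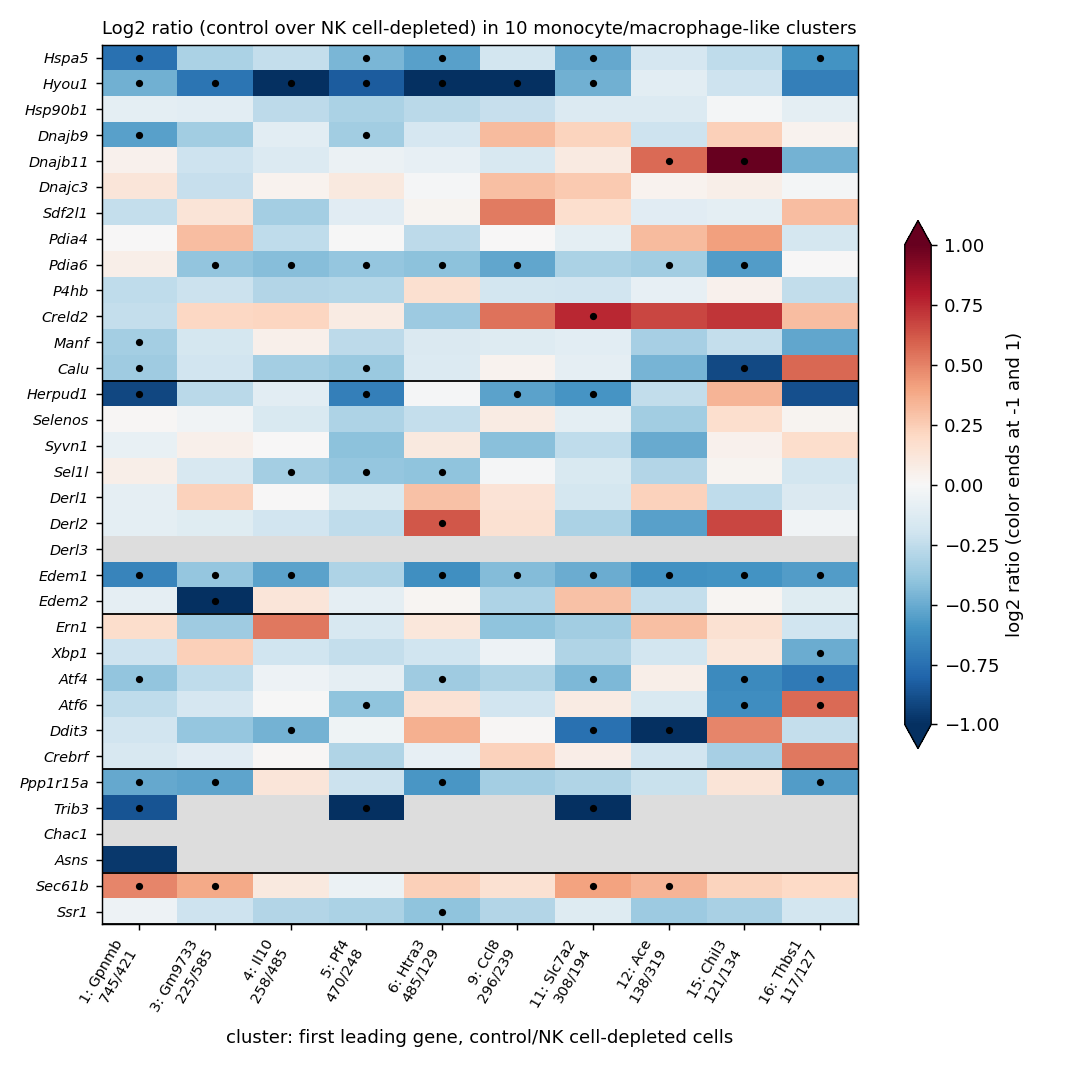
Log2 ratio of control over NK cell-depleted for each member (rows, by role) in 10 monocyte/macrophage-like clusters (columns, with the first leading gene and the control and NK cell-depleted cell numbers). Dots mark ratios past the threshold, gray cells had under 20 UMIs, and the *Hyou1* and *Edem1* rows are below 0 throughout while *Sec61b* is above 0 in 9 columns.

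Whether melanoma cells showed the same was read in a cluster that is not named after them, because their pigment cell markers were absent. Cluster 18 held 55 control and 71 NK cell-depleted cells and was led by *Cyr61*, *Prkg2*, *Cavin2*, *Serpinh1*, *Tm4sf1* and *Hmga2*. Over its 126 cells, 10 of the 12 melanoma markers were at 0, and *Ptprc*, the gene of CD45, was seen in 9 cells. It is called the *Hmga2* cluster here, by a rule set after its values were seen, at least 100 CPM of *Hmga2* and under 100 CPM of *Ptprc*. The upper limits on UMIs and genes remove most of it. Without them the cluster held 465 cells, 166 control and 299 NK cell-depleted, with a median of 21348 and 24693 UMIs per cell, and 338 of the 465 were above a limit. The 126 cells that pass the filter are shallow, with a median of 1670 and 2009 UMIs. The larger cluster was 3.02% of control and 6.15% of NK cell-depleted cells. Added cells, which are COX-competent and were not part of the tumors, and cells from the tumors cannot be told apart here. The ratios in this cluster can therefore not be assigned to the *Ptgs*-/- tumor cells. *Hmga2* was at 836 and 1000 CPM in the larger cluster, and the 33 monocyte and macrophage markers summed to 404 and 473 CPM. The 12 NK cell markers summed to 155 and 195 CPM there, with 5 and 10 of them at 0, and to 39.9 and 228 CPM in the shallow cells. Their part in the ratios was not tested.

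In the larger cluster, *Hyou1* again had a lower level in the control library, with 269 UMIs (65.1 CPM) against 837 (111 CPM) and a ratio of 0.585 (0.508 to 0.671). *Hspa5* was at 1997 and 2661 CPM, a ratio of 0.750 (0.731 to 0.770), and *Pdia6* at 319 and 410 CPM, a ratio of 0.779 (0.730 to 0.831). *Hsp90b1* was again not past the threshold, at 1209 and 1400 CPM. Further members were past it here that were not in monocyte/macrophage-like cells, where *Chac1* had under 20 UMIs and was not tested. *P4hb* was at 130 and 184 CPM with a ratio of 0.705 (0.637 to 0.779), *Xbp1* at 182 and 262 CPM with 0.694 (0.638 to 0.756), and *Chac1* at 116 and 168 CPM with 0.693 (0.622 to 0.770). *Calu* (0.796) and *Ern1* (0.762) were also lower. *Ppp1r15a* (0.784) was lower in both classes. *Edem1* (0.806), *Herpud1* (0.876), *Atf4* (0.841) and *Atf6* (0.898), which were lower in monocyte/macrophage-like cells, were not past the threshold here. Whether any of these ratios differs between the classes was not tested.

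In that larger cluster 9 of 33 members were lower in the control library, where 18.9% of all 10545 genes tested were lower, and 0 of 33 were higher, against 3.42% of all genes. Here all genes were shifted: the median log2 ratio was -0.18 over all genes and -0.24 over the members. Relative to that median, *Hyou1*, *P4hb*, *Xbp1* and *Chac1* were still past the threshold, 4 of 33 members against 5.66% of all genes, whereas *Hspa5* and *Pdia6* were not. With cells thinned to 2000 UMIs, 6 of 30 members were lower, *Hspa5*, *Hyou1*, *Calu*, *Atf4*, *Ddit3* and *Ppp1r15a*, against 6.38% of all genes. *Hyou1* was the 1 member past 1.5-fold in this cluster, as in monocyte/macrophage-like cells. *Sec61b* was at 211 and 171 CPM, a ratio of 1.24 (1.13 to 1.35). The shortest of 4 length groups had a median log2 ratio of -0.02 in this cluster, and the other 3 lay between -0.22 and -0.20. From the 136 other pathway genes tested, 22 were lower and 7 higher. Among those with at least 100 UMIs, *Nploc4* (log2 ratio -0.67), *Slc7a5* (-0.67) and *Edem3* (-0.59) were lowest and *Krtcap2* (0.59), *Fkbp2* (0.46) and *Ssr4* (0.42) highest.

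Among the 126 shallow cells, 25 members had at least 20 UMIs. In this group 9 of the 25 were lower in the control library, against 15.3% of the 3055 genes tested, and 2 were higher, against 5.70%. Only 3 of these 9, *Hspa5*, *Pdia6* and *Ppp1r15a*, were also lower in the larger cluster, although 125 of the 126 cells are part of it. *Hspa5* had 122 and 736 UMIs, or 811 and 2398 CPM, a ratio of 0.338 (0.277 to 0.410), *Hsp90b1* was at 672 and 1378 CPM, and *Hyou1* had only 11 and 32 UMIs, with a ratio of 0.702 (0.319 to 1.43). *Sec61b* (319 and 143 CPM) and *Asns* (386 and 264 CPM) were higher. *Hmga2* itself was at 293 CPM in the control and 746 CPM in the depleted cells of this group, and the 33 monocyte and macrophage markers summed to 771 and 723 CPM. The make-up of these cells may thus differ between the libraries, and its part in the ratios was not tested. The values also rest on few cells: 5 of the 55 control cells held 77.0% of the *Hspa5* UMIs. The median over all genes was -0.31 in these cells, and without the upper limits *Asns* went from 0.55 to -0.14 on the log2 scale.

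In other leukocytes the members showed no single direction across classes. In type 2 conventional dendritic cell-like cells (127 and 67 cells), *Hyou1* was lower in the control library, at 39.0 and 71.8 CPM. Its ratio there was 0.544 (0.333 to 0.889). *Hspa5*, *Dnajb11*, *Herpud1*, *Edem1* and *Ppp1r15a* were also lower in these cells, with *Hspa5* only just past the threshold. All of these but *Dnajb11* were lower in monocyte/macrophage-like cells too. Only *Dnajc3* was higher, at 142 and 84.1 CPM. No share of all genes is given for this class, so whether members were lower there more often than other genes was not tested. In neutrophil-like cells (371 and 475 cells), 4 of 27 members were lower in the control library (*Hspa5*, *P4hb*, *Edem1* and *Chac1*), against 6.78% of all genes tested, and 2 were higher (*Atf6* and *Sec61b*), against 5.59%. *Hspa5* was at 402 and 532 CPM there, and *Hyou1* had 5 and 20 UMIs with a ratio whose interval includes 1 (0.111 to 1.04). In T-like cells (286 and 221 cells), *Herpud1*, *Atf4* and *Crebrf* were lower, 3 of 28 against 5.98% of all genes, and *Hsp90b1* and *Sec61b* were higher, 2 of 28 against 7.32%. *Hspa5* was at 389 and 446 CPM in T-like cells, a ratio of 0.873 (0.729 to 1.05), so its difference was not detectable at this depth.

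Cluster 7, which joins markers of both types of conventional dendritic cells and stays unnamed, held 240 and 325 cells. *Hspa5* was lower there at 776 and 1114 CPM, together with *Ppp1r15a* and *Ssr1*, 3 of 30 members against 7.83% of all genes. *Pdia4*, *Creld2* and *Sec61b* were higher, 3 of 30 against 7.10%. Cluster 13, led by *Retnla*, *Il6* and *Lyz1*, held 122 and 172 cells, and 5 of its 30 members were lower (*Hyou1*, *Pdia6*, *Edem1*, *Edem2* and *Ppp1r15a*) against 9.32% of all genes. *Hyou1* was at 62.5 and 88.7 CPM in that cluster, with a ratio of 0.704 (0.519 to 0.948). *Sdf2l1* and *Creld2* were higher there, 2 of 30 against 7.34%.

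Levels differed more between cell classes than between the libraries for several members. In the control library, among 10 classes with at least 50 cells, the *Hmga2* cluster had the highest level of 7 members, among them *Asns*, *Trib3*, *Chac1* and *Ddit3*. *Asns* was at 386 CPM there and at 8.97 CPM or less in the other 9 classes, and *Trib3* was at 113 CPM against 8.97 CPM or less. For both genes, 8.97 CPM was 1 UMI in B-like cells. The *Hmga2* cluster is here the 55 shallow control cells. For each gene, the 5 cells with the most UMIs held 41.4% of *Asns*, 70.6% of *Trib3* and 88.9% of *Chac1* UMIs. *Ppp1r15a* was highest in neutrophil-like cells, at 1081 CPM, followed by T-like cells at 348 CPM. *Xbp1* was also highest in neutrophil-like cells, at 622 CPM, ahead of cluster 13. *Herpud1* was highest in migratory dendritic cell-like cells, at 298 CPM, and *Edem1* in type 2 conventional dendritic cell-like cells, at 236 CPM. Clusters 13 and 7 had the highest level of 7 and 6 members, among them *Hsp90b1* at 1407 CPM in cluster 13 and *Hyou1* at 75.6 CPM in cluster 7. Cluster 22, with 49 control cells, was outside this ranking. Its control cells had more *Ddit3* (803 CPM) and *Ppp1r15a* (1271 CPM) than any ranked class. The same held for *Trib3* (151 CPM), *Chac1* (83.6 CPM) and *Hyou1* (151 CPM), each on 9 UMIs or fewer. NK-like cells, compared in the control library alone with 571 cells, had 433 CPM of *Hspa5* and 32.6 CPM of *Hyou1*.

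**Figure D4:**
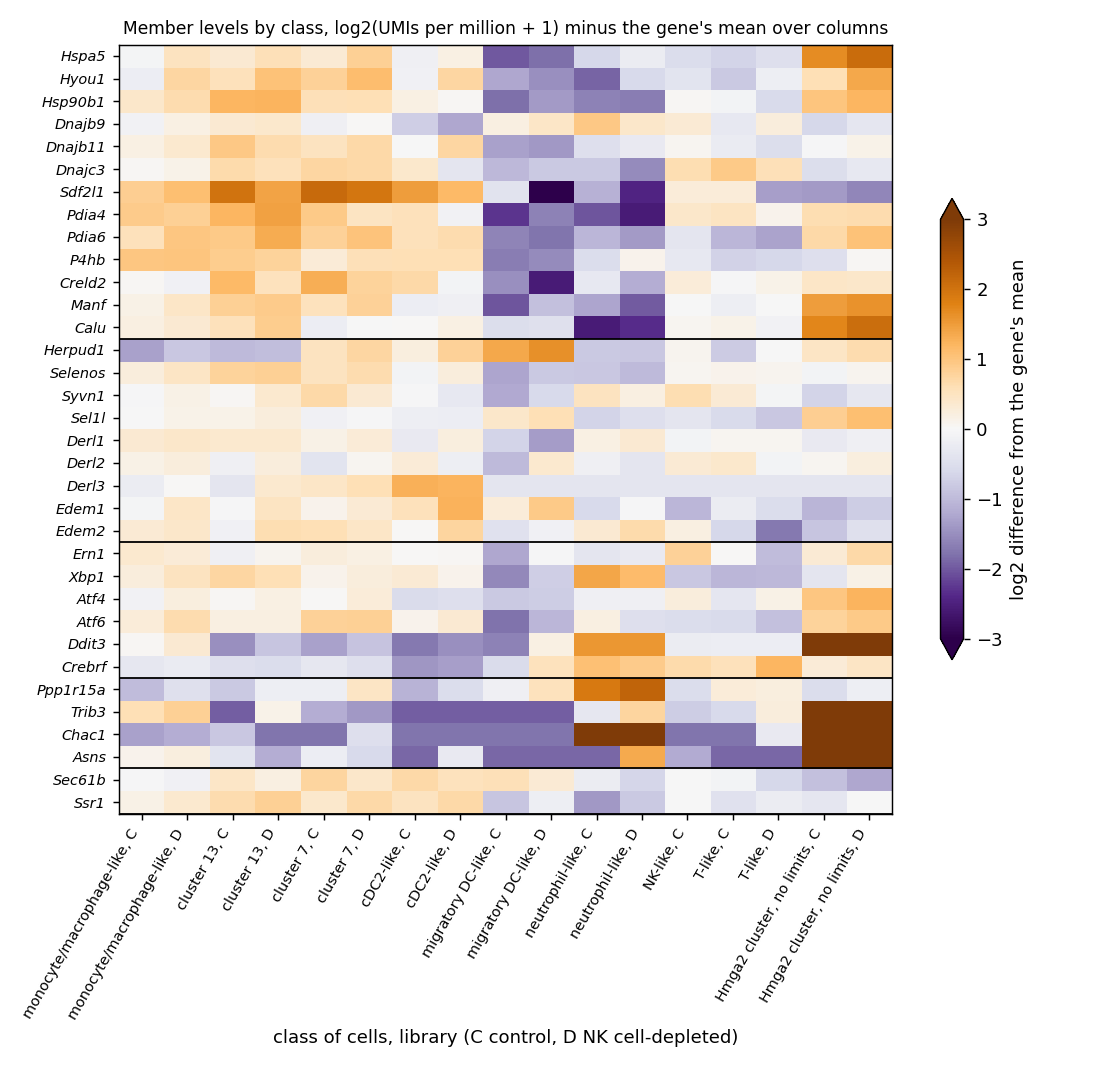
Levels of the members (rows, by role) in 9 classes of cells, each split into the control (C) and NK cell-depleted (D) library, as log2(UMIs per 1000000 + 1) minus the mean of that gene over the columns. The *Hmga2* cluster is the one without upper limits on depth, and NK-like cells are shown for the control library alone. Among the classes shown, *Ddit3*, *Trib3*, *Chac1* and *Asns* have their highest levels in the *Hmga2* cluster.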

How the data were processed

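The values used are the UMI counts by gene and cell barcode that the authors deposited as 1 matrix for each of the 2 libraries. The matrix header gives software version 3.0.2, and the submitters' processing notes name Cell Ranger, bcl2fastq and mm10. No normalization had been applied to these counts. A deposited table of normalized values was not used. The filter stated in the study's methods (500 to 15000 UMIs, 200 to 4000 genes, at most 10% mitochondrial UMIs) was applied. The members and gene lists were chosen with earlier results of these data known.

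Cells were clustered on 15 principal components of 2000 variable genes and 20 neighbors (leidenalg 0.10.2, igraph 0.11.9, scikit-learn 1.9.0, resolution 1), leaving out the members, the other pathway genes and interferon genes. A cluster took the name of the marker list, of 16, with the most genes among its first 50 by fold, given at least 3 raised markers and fewer than 2 markers of another list among the first 10. These thresholds and the rule for the *Hmga2* cluster were set after the clusters were seen. Scrublet (scanpy 1.11.5, expected rate 5%) called 41 control and 31 NK cell-depleted cells, under 1% of each library, so it found few doublets, and the cells were kept in the main result.

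For every class, the UMIs of a library were added up and divided by the class total, times 1000000. Levels carry exact Poisson intervals, and ratios the exact conditional binomial interval. A log2 ratio sets the control library over the depleted one after 0.5 UMI is added to both sums. Members with at least 100 UMIs in a class are named with values, and from the other pathway genes the 3 lowest and 3 highest log2 ratios with at least 100 UMIs. The interval function was tested on simulated data. For symbols listed more than once (35), the first entry was used. The lengths are those of the longest protein-coding transcript in GENCODE vM21, with values for 9564 of 9772 genes. Alternatives to each choice were run, and those on the larger *Hmga2* cluster were chosen after seeing the data. Protein sequences were not used here.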

Additional observations from a re-analysis of the deposited data

Results flagged for a closer look

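For 2 members the libraries differed past the threshold in opposite directions in different classes. *Hsp90b1* had a log2 ratio of -1.03 in the 126 shallow cells of the *Hmga2* cluster and of 0.50 in T-like cells, where it was at 576 CPM in control cells and 408 CPM after depletion. Without the upper limits on depth its value in the *Hmga2* cluster was -0.21. *Atf6* had a log2 ratio of -0.39 in monocyte/macrophage-like cells and of 0.69 in neutrophil-like cells, where 45 and 42 UMIs gave 95.2 and 58.9 CPM. With 1 library per group, neither difference between classes was tested.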

How the results depend on the processing

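The log2 ratio of *Hyou1* in monocyte/macrophage-like cells was below 0 under all 11 alternatives and lay outside its counting interval under 3. It was -0.74 with every cluster at the same weight, -1.08 with every cell thinned to 2000 UMIs and -1.14 with cells called one by one. Counts of members are given with the share of all genes in brackets. In this class 8 of 32 members were lower in the control library (11.4%). The count was 5 of 32 with equal cluster weights (8.84%) and 1 of 32 at 1.5-fold (2.85%). It stayed between 7 and 10 otherwise, of 32 to 34 tested (8.27% to 13.6%). The count of members higher in the control library was 0 under every alternative (5.76% to 13.8%). For the 126 cells of the *Hmga2* cluster, 9 of 25 members were lower in the control library (15.3%). After thinning it was 4 of 10 (8.80%). With ratios centred on the median of all genes it was 4 of 25 (5.99%). Totals without mitochondrial and ribosomal protein genes gave 5 of 25 (6.94%). The count of members higher was 2 of 25 (5.70%). It was 1 of 10 after thinning (12.1%) and 0 of 33 without the upper limits (3.42%). At least 2000 UMIs and at most 5% mitochondrial UMIs gave 1 of 13 (12.7%). At least 100 UMIs gave 1 of 8 (24.6%), and 1.5-fold gave 1 of 25 (3.76%). *Asns* turned to -0.14 without the upper limits. The cause was not tested. Other member ratios stayed within their counting interval in 304 of 341 cases in monocyte/macrophage-like cells and in 53 of 72 in the *Hmga2* cluster. In the larger *Hmga2* cluster, the count of members lower was 9 of 33 (18.9%), and 3 of them were also lower in the 126 cells. It was 6 of 30 after thinning (6.38%) and 4 of 33 with centred ratios (5.66%). Totals without mitochondrial and ribosomal protein genes gave 4 of 33 (7.66%), and 1.5-fold gave 1 of 33 (5.91%). Equal weights and cells called one by one were not run for the *Hmga2* cluster, which is 1 cluster without a marker list of its own. No paired analysis was possible because each group is 1 library. Depth limits the members with few UMIs, *Derl3*, *Chac1*, *Asns* and *Trib3* in leukocytes.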

Other observations

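Cluster 22, led by *Gm5483*, *Hcar2* and *Cxcl3*, stayed unnamed and held 49 control and 35 NK cell-depleted cells, with medians of 1147 and 1230 UMIs per cell. Several members had high levels in it in both libraries. *Ddit3* was at 803 CPM (592 to 1065) in control cells and 1018 CPM (753 to 1346) after depletion, against 49.0 and 60.9 CPM in monocyte/macrophage-like cells. *Dnajb9* was at 468 CPM (311 to 677) and 623 CPM (421 to 890), *Hspa5* at 2744 CPM (2340 to 3197) and 2203 CPM (1803 to 2664), and *Ppp1r15a* at 1271 CPM (1002 to 1591) and 1787 CPM (1429 to 2207). *Hyou1* had 9 and 4 UMIs in this cluster. The intervals of the ratios of *Ddit3*, *Dnajb9* and *Hspa5* include 1, and that of *Ppp1r15a* does not (0.711, 0.516 to 0.980). The cluster and these members were chosen after their values were seen.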
